A study of Homo sapiens with 12 samples.

Results

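The genes described here encode the RNA polymerase I, II and III machinery: the subunits of the 3 nuclear RNA polymerases (POLR1, POLR2 and POLR3 genes) and the factors that place Pol I and Pol III on their genes. The 42 genes were chosen by name, as the rows of the counts table that carry the listed symbols, and all 42 were found among 57353 gene names. All 42 also passed the filter on low counts and were tested with the other genes, 12998 in all. The rule itself uses no measured value. The members fall into 7 classes by role: 3 subunits of Pol I, 2 subunits shared by Pol I and Pol III, 7 subunits of Pol II, 5 subunits shared by all 3 polymerases, 9 subunits of Pol III, 6 Pol I initiation factors, and 10 genes that hold the Pol III initiation factors together with the Pol III repressor MAF1.

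The libraries came from MOLM-13, a human acute myeloid leukemia (AML) cell line whose growth is driven by an internal tandem duplication in the receptor tyrosine kinase FLT3. Cells were kept for 15 hr with DMSO (vehicle) or with 3 nM quizartinib (AC220), a FLT3 inhibitor, either in regular RPMI medium or in hBMSC-CM. The study made hBMSC-CM from equal parts of RPMI medium and of medium conditioned by HS-5, a stromal line from human bone marrow. Drug and medium together give 4 groups of 3 replicates: vehicle in RPMI, quizartinib in RPMI, vehicle in hBMSC-CM and quizartinib in hBMSC-CM. All groups share the 1 cell line, hBMSC-CM stands for soluble factors of 1 stromal line, and the study describes its replicates as biological, while the labels do not tie them to separate cultures. The p-values measure the spread between these libraries. Poly-A RNA was sequenced to between 19966546 and 31546104 counts per library, where 0 counts leave room for at most 0.0951 to 0.150 CPM, for counting error only. Levels below are counts-per-million (CPM), a gene's counts over the library's total, with the total scaled by TMM factors. CPM is a gene's share of the reads, so a change in the amount of RNA per cell was not measured, and in bulk samples fewer cells of a type and less RNA per cell cannot be told apart.

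The libraries held most of the AML markers checked. FLT3 stood at 209 CPM in vehicle in RPMI, and LYZ was the most abundant of the 10 myeloid markers over the mean of all libraries, although PTPRC (535 CPM) and FLT3 (454 CPM) were above it (354 CPM) with quizartinib in RPMI. Their summed level was 1031 to 1077 CPM in vehicle in RPMI, 1751 to 1787 with quizartinib in RPMI, 1149 to 1184 with vehicle in hBMSC-CM and 1953 to 2092 with quizartinib in hBMSC-CM. Of 9 bone marrow stroma markers, COL3A1, LUM, DCN and THY1 had no count in any library, and ENG made up most of a summed level of 26.2 to 37.3 CPM. The collagen gene COL1A1 was at a mean of 0.177 CPM in vehicle in RPMI, 4.61 with quizartinib in RPMI, 0.225 with vehicle in hBMSC-CM and 0.992 with quizartinib in hBMSC-CM. ENG went the other way, with means of 27.5 and 21.6 CPM for vehicle and quizartinib in RPMI (−0.35, called lower) and 31.9 and 31.1 CPM in hBMSC-CM. The 4 lymphoid markers summed to 0.369 to 1.23 CPM, with CD79A the most abundant and CD3E at 0. Of the myeloid markers, ANPEP was too low to be tested. The share of mitochondrially encoded reads was 0.726% in vehicle in RPMI and 1.05% with quizartinib in RPMI, against 0.511% and 0.856% in hBMSC-CM. Among replicates, 1 library of each hBMSC-CM group stood apart. With quizartinib it was replicate 1: the mean chi-square per gene between replicates 1 and 2 was 9.80 and between 1 and 3 was 9.45, against 3.16 between 2 and 3. With vehicle it was replicate 3, at 10.5 from replicate 1 and 6.77 from replicate 2, against 3.73 between 1 and 2. Without both of these libraries 35 members fell and 2 rose with quizartinib in hBMSC-CM, against 34 and 2 with them. Within the myeloid list, FLT3, PTPRC, LYZ, CSF1R and MEIS1 rose with quizartinib in RPMI, ITGAM (−1.01), MPO (−0.41) and CD33 (−0.28) fell, and HOXA9 was not called (−0.02). The part that the changes of these markers, of COL1A1 and ENG and of mitochondrial reads played in the results below was not tested.

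Pol I transcribes the large ribosomal RNA precursor in the nucleolus, Pol II transcribes protein-coding genes, and Pol III transcribes tRNAs, 5S ribosomal RNA and other short RNAs. Each polymerase has a catalytic core of its own largest and second largest subunits, some small subunits are built into all 3 enzymes, and others only into Pol I and Pol III. Pol I is brought to ribosomal DNA by UBTF, RRN3 and the TBP-containing SL1 complex, while Pol III uses TFIIIA (for 5S genes), the multi-subunit TFIIIC and a TFIIIB complex built on BRF1 or BRF2. MAF1 represses Pol III when growth signals are low.

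The first comparison asked what FLT3 inhibition did to this machinery in regular medium. Quizartinib lowered the mRNA of most polymerase genes in RPMI: 31 of the 42 members (73.8%) fell and 7 (16.7%) rose, in the quasi-likelihood test of edgeR with p-values adjusted by Benjamini-Hochberg (threshold 0.05). Of all tested genes, 39.2% fell and 40.1% rose. The median log2 fold change was −0.54 over the members and 0.02 over all tested genes. At least 2-fold lower were 13 members (31%, against 11.8% of all genes), and POLR3GL was the single member at least 2-fold higher (9.63% of all genes rose this much). The 42 members together took up 0.374% of the counts in vehicle in RPMI and 0.287% with quizartinib. No member called in any comparison changed sign while still called under another scaling, filter or test. Of the 38 calls in RPMI, 35 held under every alternative run; those of TAF1A, GTF3C3 and MAF1 did not.

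**Figure D1:**
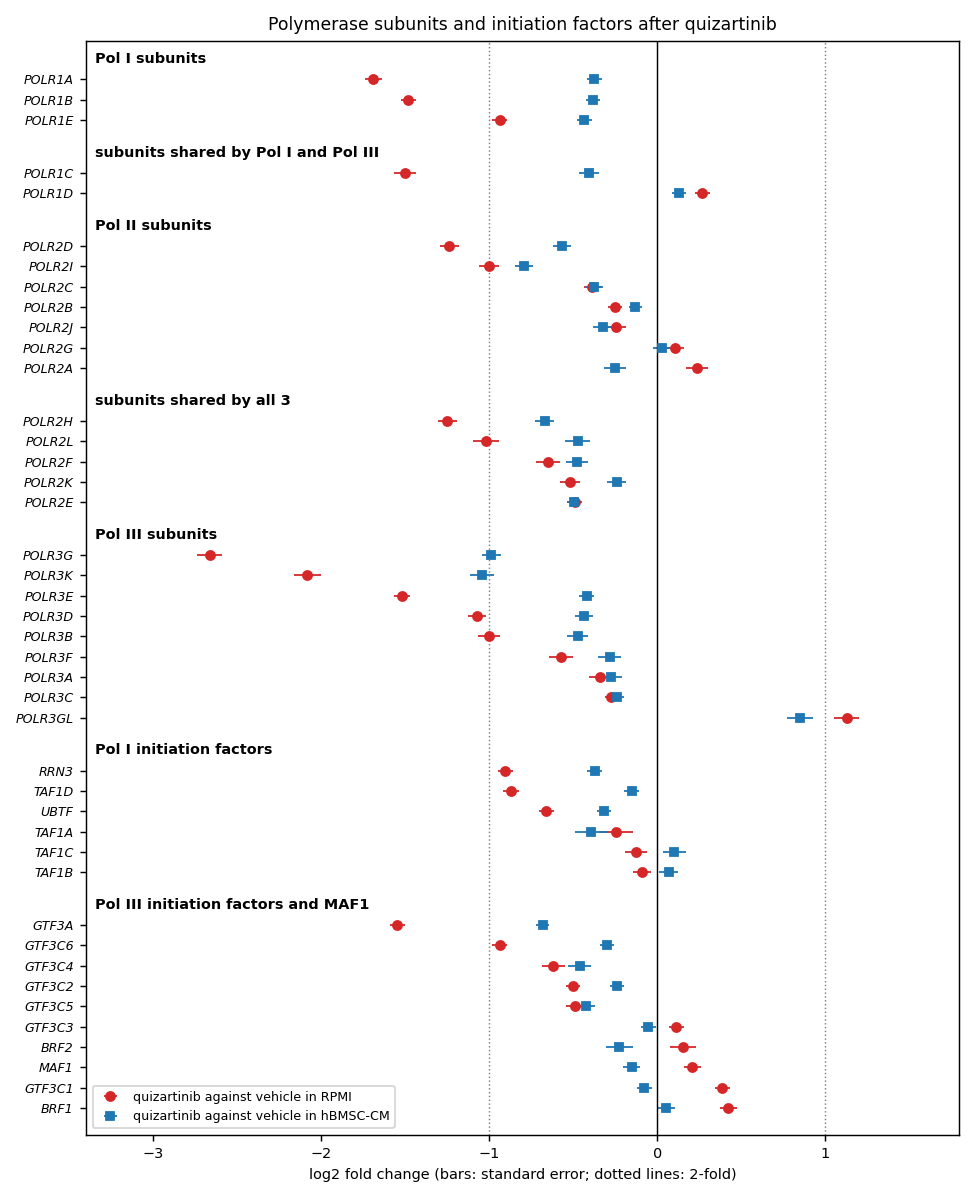
Log2 fold change of quizartinib against vehicle for the 42 members, grouped by role, in RPMI (red circles) and hBMSC-CM (blue squares); bars are standard errors of the fit and dotted lines mark 2-fold. In RPMI, POLR3G (−2.67), POLR3K (−2.08) and POLR1A (−1.69) sit furthest to the left and POLR3GL furthest to the right (1.13), while in hBMSC-CM most members lie closer to 0.

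All 3 Pol I subunits fell in RPMI (100%, against 39.2% of all genes), with a median of −1.48 on the log2 scale. POLR1A, the largest subunit of Pol I (chr2:86020216-86106155, minus strand, GRCh38), was at 152, 149 and 157 CPM in vehicle in RPMI and at 46.1, 47.6 and 48.2 CPM with quizartinib. It was at 180, 169 and 160 CPM with vehicle in hBMSC-CM and at 126, 136 and 132 CPM with quizartinib in hBMSC-CM. The quizartinib libraries in RPMI were thus far below all others, and those in hBMSC-CM lay between. POLR1A fell by 1.69 (SE 0.0492, adjusted p = 9.34e-18) in RPMI, to 31% of the vehicle mean, and by 0.37 (SE 0.0459, adjusted p = 4.01e-07) in hBMSC-CM, to 77.2%. POLR1B, the second largest subunit, followed the same order of groups, with 107, 106 and 101 CPM for vehicle and 38.3, 36.3 and 37.9 CPM for quizartinib in RPMI (−1.48, SE 0.0455). The hBMSC-CM values were 129, 128 and 127 CPM with vehicle and 101, 99.4 and 93.8 CPM with quizartinib (−0.38). POLR1E, a subunit of the Pol I heterodimer that acts in initiation, changed less in RPMI, from 74.8, 76.8 and 75.4 CPM to 40, 38.4 and 40.2 CPM (−0.94). It went from 77.9, 83.5 and 84.6 CPM to 60.6, 60 and 61.2 CPM in hBMSC-CM (−0.43), with no overlap in either medium.

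The pair of subunits shared by Pol I and Pol III moved in opposite directions. POLR1C was at 46.4, 42.6 and 43.3 CPM in vehicle in RPMI and at 14.7, 15.9 and 16.2 CPM with quizartinib, a fall of 1.5 (SE 0.0652). In hBMSC-CM it was at 49.7, 46.7 and 54 CPM with vehicle and at 39, 38 and 36.6 CPM with quizartinib, a fall of 0.40. POLR1D, its partner in the assembled enzymes, rose instead: it was at 127, 115 and 119 CPM in vehicle in RPMI and at 148, 143 and 145 CPM with quizartinib. The groups of POLR1D did not overlap in RPMI, and its rise was 0.27 (SE 0.0442, adjusted p = 1.17e-05). Per length, POLR1D was the most abundant member in vehicle in RPMI, at 174 CPM per kb of transcript, with GTF3A next at 172, and these 2 levels lay within each other's SD (9.03 and 2.6). The lowest was TAF1A at 4.13 CPM per kb. These ranks depend on the transcript whose length is taken. For POLR1D it has 693 bases, far fewer than all exon bases of the gene, from which reads are counted.

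Pol II's own subunits moved the least among the subunit classes in RPMI, with a median of −0.25. Of the 7, 5 fell (71.4%, against 39.2% of all genes), POLR2A rose (14.3%, against 40.1%) and POLR2G was not called (0.11, adjusted p = 0.0696). POLR2A, the largest subunit, which carries the C-terminal repeat domain (chr17:7484366-7514616, plus strand), was at 120, 109 and 114 CPM in vehicle in RPMI and at 126, 154 and 123 CPM with quizartinib. With conditioned medium the level was at 133, 126 and 141 CPM with vehicle and at 116, 109 and 110 CPM with quizartinib. It therefore rose in RPMI (0.24, SE 0.0664, adjusted p = 0.00278, or 0.13 with adjusted p = 0.0393 without replicate 2 of quizartinib in RPMI) and fell in hBMSC-CM (−0.25, SE 0.0668, adjusted p = 0.00237), where the call was lost with library size as the only scaling. POLR2B, the second largest subunit, went from 279, 290 and 281 CPM to 243, 236 and 235 CPM in RPMI (−0.25) and from 306, 318 and 314 CPM to 292, 289 and 277 CPM in hBMSC-CM (−0.13), small changes with no overlap between vehicle and quizartinib. The POLR2B call in hBMSC-CM was lost under 3 of 23 alternatives. POLR2D, which with POLR2G forms the stalk of Pol II, fell the most of this class: 70.6, 67.9 and 69.6 CPM in vehicle in RPMI and 30.3, 30.7 and 27.1 CPM with quizartinib. That was a fall of 1.24 (SE 0.0569), while its stalk partner POLR2G was at 54.5 ± 0.638 and 58.8 ± 4.08 CPM, in groups that did not overlap, and was called higher under 4 of 23 alternatives. POLR2I lay at the 2-fold line (−1.0), but 69% of its exon bases overlap an unconfirmed transcript on the other strand, and POLR2J (−0.24) has near-identical copies in the genome, so their counts are uncertain.

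The 5 subunits built into all 3 polymerases all fell in RPMI (100%, against 39.2% of all genes). The range was −0.49 for POLR2E to −1.25 for POLR2H, with a median of −0.65. POLR2H was at 60.7, 58.3 and 57.5 CPM in vehicle in RPMI and at 23.5, 24.8 and 26 CPM with quizartinib. Libraries in hBMSC-CM were at 70.1, 73.8 and 79.2 CPM with vehicle and at 48.7, 45.3 and 45.7 CPM with quizartinib, between the 2 RPMI groups. POLR2E had nearly the same values in each medium: 146, 139 and 136 CPM with vehicle and 95.3, 101 and 104 CPM with quizartinib in RPMI, and 144, 139 and 140 CPM and 101, 97.1 and 101 CPM in hBMSC-CM. Its fall was 0.49 in RPMI and 0.50 in hBMSC-CM, and the difference between these was −0.01 (SE 0.0612, adjusted p = 0.952). POLR2L fell by 1.02 in RPMI, POLR2F by 0.65 and POLR2K by 0.52; 22.8% of the exon bases of POLR2L overlap CD151 on the other strand.

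**Figure D2:**
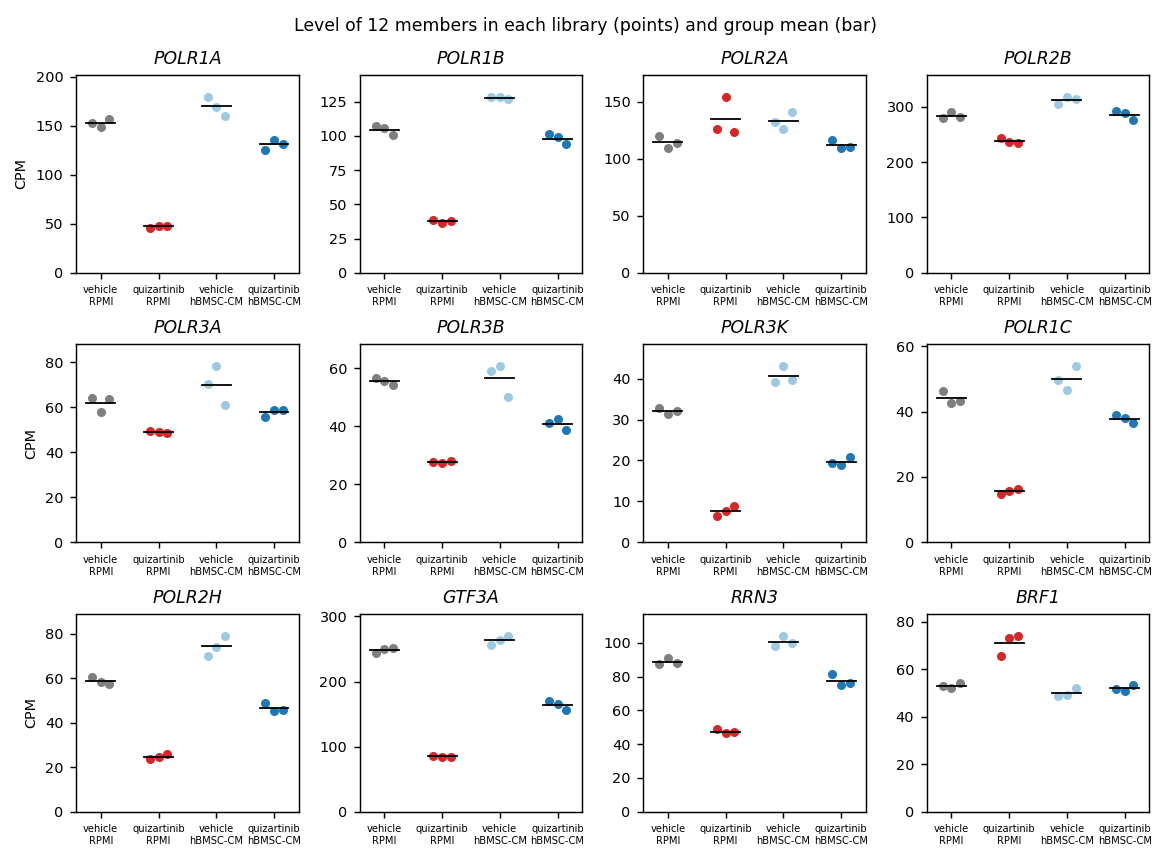
CPM (scaled by TMM) of 12 members in each of the 12 libraries; points are libraries, bars are group means, and each axis starts at 0. POLR1A, POLR1B, POLR3K, POLR1C, POLR2H, GTF3A and RRN3 were lowest with quizartinib in RPMI and in between with quizartinib in hBMSC-CM, whereas POLR2A and BRF1 were not lowered by quizartinib in RPMI.

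Pol III subunits held both the largest fall and the largest rise of all members. In RPMI 8 of 9 fell (88.9%, against 39.2% of all genes) and POLR3GL rose (11.1%, against 40.1%), with a median of −1.0. The 2 extremes are a pair of alternative subunits. POLR3G (chr5:90471748-90514557, plus strand) and POLR3GL (chr1:145964690-145978848, plus strand) occupy the same place in Pol III, and POLR3G is known as the form of stem and cancer cells while POLR3GL is the widespread form. POLR3G was at 38.5, 39.5 and 38.8 CPM in vehicle in RPMI and at 5.63, 6.78 and 5.91 CPM with quizartinib. In hBMSC-CM it was at 56.7, 60.4 and 62.1 CPM with vehicle and at 30.7, 30.3 and 29.1 CPM with quizartinib. The 4 groups did not overlap, and quizartinib in RPMI was the lowest by far. POLR3G fell by 2.67 (SE 0.0717, adjusted p = 2.72e-18) in RPMI, to 15.7% of the vehicle mean, and by 0.99 (SE 0.0566, adjusted p = 3.9e-12) in hBMSC-CM, to 50.3%.

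POLR3GL went the other way. It was at 12.5, 12.2 and 11.1 CPM in vehicle in RPMI and at 26.8, 26.4 and 25.4 CPM with quizartinib. With conditioned medium the level was at 10.5, 11.1 and 9.68 CPM with vehicle and at 20, 17.6 and 18.6 CPM with quizartinib. Every quizartinib library was above every vehicle library, with a rise of 1.13 (SE 0.0723, adjusted p = 5.89e-12) in RPMI and 0.85 (SE 0.0776, adjusted p = 5.38e-09) in hBMSC-CM. POLR3G reads made up 75.4%, 76.4% and 77.7% of the reads of the pair in vehicle in RPMI and 17.3%, 20.4% and 18.9% with quizartinib. The shares were 84.4%, 84.5% and 86.5% with vehicle in hBMSC-CM and 60.5%, 63.3% and 61.1% with quizartinib. Read counts favour the longer transcript, which is that of POLR3G, so the order of the pair was taken per length. The levels were 11.8 CPM per kb for POLR3G and 10.2 for POLR3GL in vehicle in RPMI, and 1.86 and 22.3 with quizartinib. In hBMSC-CM they were 18.2 and 8.85 with vehicle and 9.14 and 15.9 with quizartinib, so that per length POLR3GL was above POLR3G in both quizartinib groups. Of the exon bases of POLR3GL, 21.1% are shared with another gene model on the same strand, so its level is less certain than that of POLR3G.

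**Figure D3:**
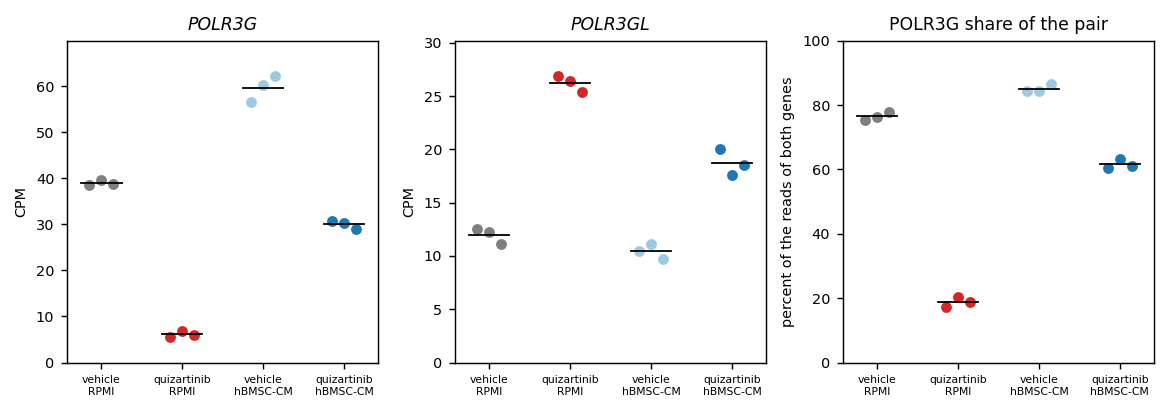
CPM of POLR3G and POLR3GL in each library and, at right, the percent of the reads of both genes that belong to POLR3G; points are libraries and bars are group means. POLR3G fell and POLR3GL rose with quizartinib in each medium, and the POLR3G share was lowest with quizartinib in RPMI (17.3% to 20.4%).

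The other Pol III subunits fell by unequal amounts. POLR3K, a small subunit that acts in termination and RNA cleavage and that was singled out after its values were seen, was at 32.9, 31.3 and 32.2 CPM in vehicle in RPMI and at 6.4, 7.75 and 8.74 CPM with quizartinib, a fall of 2.08 (SE 0.0827). Libraries in hBMSC-CM were at 39.1, 43.1 and 39.6 CPM with vehicle and at 19.3, 19 and 20.9 CPM with quizartinib, a fall of 1.04 (SE 0.0714). POLR3E, also picked out afterwards, fell by 1.52 in RPMI, from 90.6 ± 3.5 to 31.6 ± 1.28 CPM. POLR3D followed with −1.07. POLR3B, the second largest subunit, was at 56.7, 55.4 and 54.3 CPM in vehicle in RPMI and at 27.8, 27.4 and 28 CPM with quizartinib (−1.0, SE 0.0637), and at 59, 60.7 and 49.9 CPM and 41, 42.4 and 38.8 CPM in hBMSC-CM (−0.47). POLR3A, the largest subunit (chr10:77953148-78029522, minus strand), was at 64.4, 58.1 and 63.8 CPM in vehicle in RPMI and at 49.5, 49.1 and 48.6 CPM with quizartinib. The hBMSC-CM libraries held 70.5, 78.4 and 61.2 CPM with vehicle and 55.8, 58.8 and 58.7 CPM with quizartinib. Its fall in RPMI of 0.34 (SE 0.0663, adjusted p = 8.98e-05) was among the smaller ones of this class, with POLR3C (−0.27).

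The largest subunits of the 3 polymerases can be set side by side per length. In vehicle in RPMI, POLR1A stood at 12.2 ± 0.316, POLR2A at 18.1 ± 0.864 and POLR3A at 9.39 ± 0.525 CPM per kb. With quizartinib in RPMI the order of POLR1A and POLR3A turned: POLR1A stood at 3.79 ± 0.0851, POLR2A at 21.3 ± 2.73 and POLR3A at 7.42 ± 0.0688 CPM per kb. With quizartinib in hBMSC-CM the levels were 10.5 ± 0.399, 17.7 ± 0.628 and 8.74 ± 0.258 CPM per kb, in the order seen with vehicle. Of the second largest subunits, POLR2B was well above the other two in vehicle in RPMI, at 74.9 ± 1.58 CPM per kb, against 13.9 ± 0.478 for POLR1B and 13.3 ± 0.281 for POLR3B, whose libraries overlapped.

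Of the 6 Pol I initiation factors, 4 fell in RPMI (66.7%, against 39.2% of all genes), with a median of −0.45. None rose (against 40.1%) and none was at least 2-fold lower (against 11.8%). RRN3, which carries growth signals to Pol I, was at 87.5, 91 and 88 CPM in vehicle in RPMI and at 49, 46.4 and 46.9 CPM with quizartinib, a fall of 0.90 (SE 0.0464). In hBMSC-CM it was at 97.9, 104 and 99.6 CPM with vehicle and at 81.6, 74.8 and 76.1 CPM with quizartinib, a fall of 0.37 (SE 0.0448). UBTF, which coats active ribosomal DNA, went from 342, 324 and 329 CPM to 201, 216 and 213 CPM in RPMI (−0.66) and from 332, 325 and 307 CPM to 263, 249 and 263 CPM in hBMSC-CM (−0.32). The SL1 subunits differed among themselves. TAF1D went from 194, 189 and 200 CPM to 112, 102 and 105 CPM in RPMI (−0.87) and from 194, 198 and 189 CPM to 166, 182 and 174 CPM in hBMSC-CM (−0.15). Its call in hBMSC-CM was lost under 4 of 23 alternatives. TAF1A fell by 0.24 in RPMI, a call that 7 of the 22 alternatives lost. TAF1C (−0.13, adjusted p = 0.0889) and TAF1B (−0.09, adjusted p = 0.143) were not called in RPMI, but were called under 6 and 2 of 23 alternatives. TAF1D hosts several small nucleolar RNAs annotated on the same strand within its exon bases, so its count is less certain.

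Of the 10 Pol III factors 5 fell (50%, against 39.2% of all genes) and 4 rose (40%, against 40.1%), shares near those of all genes. GTF3C1, GTF3C3, BRF1 and MAF1 were the 4 that rose, and BRF2 was not called (0.16, adjusted p = 0.068). GTF3A, the 5S gene factor TFIIIA (chr13:27424619-27435823, plus strand), was at 244, 250 and 251 CPM in vehicle in RPMI and at 86.4, 84.3 and 84.1 CPM with quizartinib, a fall of 1.55 (SE 0.0426, adjusted p = 4.04e-18). With conditioned medium the level was at 256, 264 and 270 CPM with vehicle and at 170, 166 and 156 CPM with quizartinib, a fall of 0.68 (SE 0.0411). It was the single factor of this class at least 2-fold lower (10%, near the 11.8% of all genes). The TFIIIC subunits moved unequally: GTF3C6 fell by 0.94, GTF3C4 by 0.62, GTF3C2 by 0.50 and GTF3C5 by 0.49, whereas GTF3C1, the largest of them, rose from 210 ± 2.89 to 275 ± 10.6 CPM (0.39, SE 0.0432). The count of GTF3C2 is uncertain, since 19.5% of its exon bases overlap GTF3C2-AS1 on the other strand.

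BRF1, the TFIIIB subunit for tRNA and 5S genes, was at 52.9, 52.1 and 54 CPM in vehicle in RPMI and at 65.8, 73.4 and 74.2 CPM with quizartinib. Libraries in hBMSC-CM were at 48.9, 49.4 and 52 CPM with vehicle and at 51.9, 50.7 and 53.3 CPM with quizartinib. The groups were apart in RPMI, where it rose by 0.42 (SE 0.0504, adjusted p = 1.27e-07), and overlapped in hBMSC-CM (0.05, SE 0.052, adjusted p = 0.365). MAF1 was at 178, 163 and 166 CPM in vehicle in RPMI and at 181, 197 and 209 CPM with quizartinib, a rise of 0.21 (SE 0.0516, adjusted p = 0.000928) that was not called without the filter on low counts (0.11). In hBMSC-CM it was at 173, 171 and 178 CPM with vehicle and at 165, 149 and 156 CPM with quizartinib (−0.15, adjusted p = 0.0147), a call lost under 4 of 23 alternatives. BRF2, the TFIIIB subunit for U6-type promoters, was at 16.1, 14.3 and 14.7 CPM in vehicle in RPMI and at 15.4, 17.4 and 17.7 CPM with quizartinib, with overlap. The hBMSC-CM values of BRF2 were 15, 15.6 and 15.1 CPM with vehicle and 13.6, 12.1 and 13.4 CPM with quizartinib (−0.23, adjusted p = 0.0169), a call also lost under 4 of 23 alternatives, and 60% of its exon bases overlap ADGRA2 on the other strand.

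Promoter sequence was looked up in RefSeq (GRCh38.p14) as the 250 bases before and 50 after the first listed start, for 33 of the 42 members and 8998 of the tested genes. For 20 of these 33 that start lies within 25 bases of the gene start in GENCODE v44, and the other windows can lie at another start or inside the gene. The following stretches of 60 bases just before that start are shown for POLR3K and GTF3A, which fell strongly, for POLR3GL and BRF1, which rose, and for GTF3C4 and POLR3A, which hold an E-box, the 6-base element that MYC-family factors bind. They are written 5′ to 3′ on the gene's strand, with an E-box (CACGTG) or GC box (GGGCGG or its complement CCGCCC) in capitals, and lie at chr16:53609-53668 (minus), chr13:27424559-27424618 (plus), chr1:145964630-145964689 (plus), chr14:105315590-105315649 (minus), chr9:132669975-132670034 (plus) and chr10:78029516-78029575 (minus), in this order.

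POLR3K: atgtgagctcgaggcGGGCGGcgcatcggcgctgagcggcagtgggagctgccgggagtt

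GTF3A: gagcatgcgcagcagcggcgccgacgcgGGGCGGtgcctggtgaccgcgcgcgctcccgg

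POLR3GL: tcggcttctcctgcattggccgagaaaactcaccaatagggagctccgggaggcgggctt

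BRF1: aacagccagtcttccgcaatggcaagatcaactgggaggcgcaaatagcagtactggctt

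GTF3C4: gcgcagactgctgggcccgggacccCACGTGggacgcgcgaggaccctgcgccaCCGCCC

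POLR3A: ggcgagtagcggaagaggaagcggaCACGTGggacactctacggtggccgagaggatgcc

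Over the whole windows and both strands, CACGTG stood in 6 of the 33 members (18.2%) and in 10.7% of all tested genes. The ETS-type letters CCGGAAG stood in 18 members (54.5%, against 20.7% of all) and GGGCGG in 21 (63.6%, against 70.5%). Of the 10 members with a window that fell at least 2-fold in RPMI 9 held GGGCGG, 4 CCGGAAG and 1 CACGTG, and of the other 23 members 12, 14 and 5 did. Among the members that rose in RPMI, the windows of POLR1D, POLR2A, POLR3GL and GTF3C1 held GGGCGG, and those of GTF3C3 and BRF1 did not. In POLR3GL it lies outside the stretch shown. These matches describe letters in a window and were not measured as binding.

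In hBMSC-CM the question was whether the machinery still responded to the drug when stromal factors were present. There, 34 of 42 members (81%) fell and POLR1D and POLR3GL rose, against 33.7% and 33.4% of all tested genes. The median was −0.35 over the members and 0.01 over all genes. POLR3K (−1.04), POLR3G (−0.99), POLR2I (−0.79), GTF3A (−0.68) and POLR2H (−0.67) fell the most. By class, the median was −0.38 for the Pol I subunits, −0.42 for the Pol III subunits, −0.32 for the Pol II subunits and −0.48 for the subunits shared by all 3. Of the 36 calls, 30 held under every alternative, and the rise of POLR1D (0.13) was lost under 2 of 23. The count depends on the scaling: the higher share of all calls was 49.8% with TMM, 60% after upper-quartile scaling and 62.8% with library size only, and the members then counted 30 lower and 5 higher, or 29 lower and 6 higher. With these scalings RPMI had 30 lower and 9 higher under each, so that which medium had more members lower depends on the scaling. With these 2 scalings, the median over all genes shifted to 0.09 and 0.11 in hBMSC-CM, and to 0.13 and 0.11 in RPMI, where the members' median was −0.44 and −0.46.

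Setting the quizartinib-treated cells of the 2 media against each other, which uses the same quizartinib libraries again, 25 members (59.5%) were higher in hBMSC-CM and 8 (19%) were lower, against 35.5% and 34.3% of all tested genes. The median was 0.30 over the members and 0.00 over all genes. At least 2-fold higher were POLR3G (2.29), POLR1A (1.47), POLR1B (1.39), POLR3K (1.38), POLR1C (1.28) and POLR3E (1.24), or 14.3% of the members against 7.15% of all genes, and no member was 2-fold lower (2.72% of all genes). Each of the 6 belongs to Pol I, to Pol III or to their shared subunits. Most members are genes of Pol I or Pol III, and only 7 are Pol II's own subunits. The 8 lower members were POLR2A, POLR3GL, TAF1B, GTF3C1, GTF3C3, BRF1, BRF2 and MAF1. Under every alternative 31 of the 33 calls held, while those of TAF1B and GTF3C3 were lost without the filter on low counts. With quizartinib in hBMSC-CM, POLR1B reached 93.8% of its level in vehicle in RPMI, POLR1A 85.8%, POLR3G 77.1% and POLR3K 61.4%, whereas POLR3GL stood at 157%.

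An interaction term tested whether the drug effect differed between the media, which takes in all 4 groups and thus the same libraries. It was positive (a smaller fall or a larger rise in hBMSC-CM) for 21 members (50%) and negative for 7 (16.7%), against 26.1% and 19.2% of all tested genes, with a median of 0.22 over the members and 0.01 over all genes. The largest was that of POLR3G, at 1.68 (SE 0.0933, adjusted p = 5.96e-12), followed by POLR1A at 1.32 (SE 0.067, adjusted p = 1.62e-12). POLR3E, POLR1C and POLR1B each stood at 1.10 and POLR3K at 1.04. All 3 Pol I subunits and 6 of 9 Pol III subunits were positive, against 2 of 7 Pol II subunits (POLR2D, 0.67, and POLR2I, 0.21, the latter lost under 13 of 22 alternatives); among the Pol III calls, that of POLR3F (0.29) was lost under 6 of 22. POLR2A (−0.49, SE 0.0943, adjusted p = 0.000242), GTF3C1 (−0.46), BRF2 (−0.38), BRF1 (−0.37), MAF1 (−0.36), POLR3GL (−0.28) and GTF3C3 (−0.17) were negative, and the last 2 calls were each lost under 10 of 22 alternatives. For POLR2B (0.12, SE 0.0556), POLR2C (0.01, SE 0.0707), POLR3A (0.06, SE 0.0932) and POLR3C (0.03, SE 0.0569) the difference was not called.

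Without drug, the members differed by small amounts between the media. With vehicle, hBMSC-CM raised 16 of the 42 members (38.1%) and lowered TAF1B (2.38%), against 16.6% and 15.5% of all tested genes, with a median of 0.07 over the members and −0.00 over all genes. Of the higher members, POLR3G differed the most (0.61, SE 0.055, adjusted p = 3.72e-08), then POLR2H (0.34), POLR3K (0.33) and POLR1B (0.29). TAF1B, the SL1 subunit, was at 33.3, 32.9 and 32.2 CPM in RPMI and at 26.3, 25 and 25.7 CPM in hBMSC-CM (−0.35, SE 0.0568), with no overlap. The counts depend on the scaling, with 11 higher and 3 lower after upper-quartile scaling and 13 higher and 3 lower with library size only. Of all calls 51.8% were higher with TMM, and 42.1% and 45.7% with these. Of the 17 calls, 8 held under every alternative. Without replicate 2 of vehicle in RPMI 9 members were called. The vehicle libraries are those of the drug comparisons as well.

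The 3 polymerases were also compared within each library, as the mean log2 CPM of a class minus that of the Pol II subunits. Transcript lengths enter this ratio, so only its change between groups can be read, and no test was made on it. For the Pol I subunits the ratio was 0.476 ± 0.0229 in vehicle in RPMI and −0.494 ± 0.0637 with quizartinib, a change of −0.97, and 0.557 ± 0.0267 and 0.505 ± 0.0524 in hBMSC-CM, a change of −0.05. For the Pol III subunits it went from −0.847 ± 0.0181 to −1.38 ± 0.0326 in RPMI, a change of −0.53, and from −0.807 ± 0.0528 to −0.829 ± 0.0297 in hBMSC-CM, a change of −0.02. In hBMSC-CM the libraries of the 2 groups overlapped for both classes, and in RPMI they were far apart. A small change of the ratio does not mean an unchanged level. In hBMSC-CM the median drug effect was −0.32 for the Pol II subunits, −0.38 for Pol I and −0.42 for Pol III. The subunits shared by Pol I and Pol III changed by −0.22 in RPMI and 0.21 in hBMSC-CM, those shared by all 3 by −0.38 and −0.13, the Pol I factors by −0.09 and 0.17, and the Pol III factors with MAF1 by 0.12 and 0.09.

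**Figure D4:**
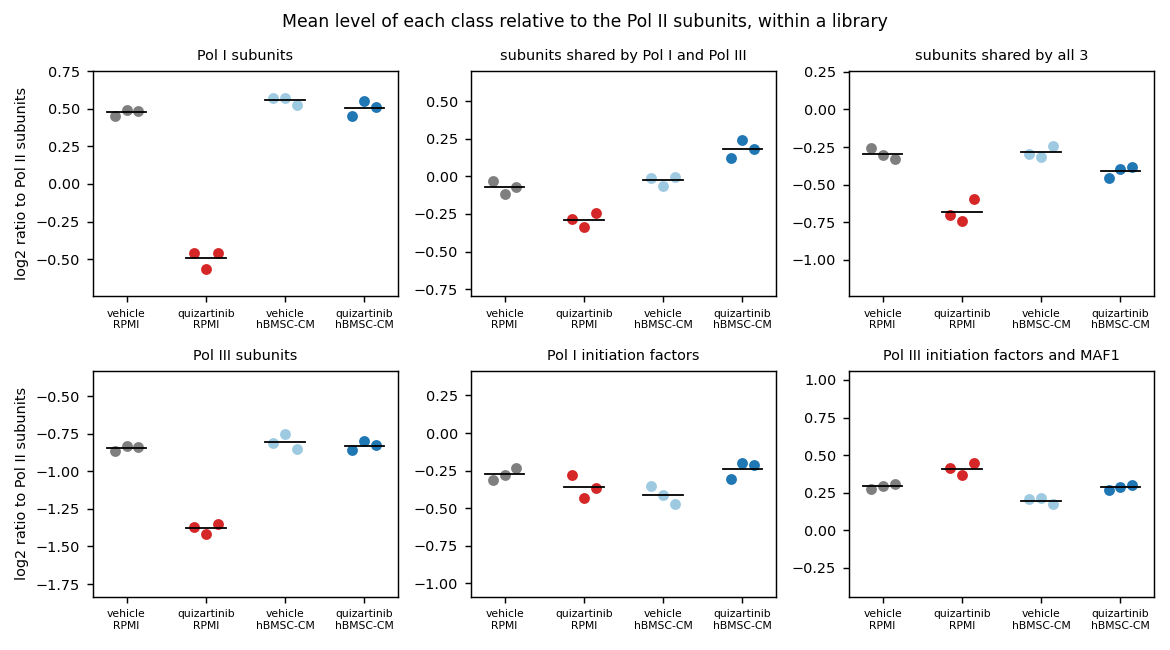
Mean log2 CPM of each class minus that of the 7 Pol II subunits in the same library; points are libraries, bars are group means, and the 6 panels span the same range of log2 units, centred on each class. With quizartinib in RPMI the Pol I and Pol III subunits changed against Pol II by −0.97 and −0.53. In hBMSC-CM the changes were −0.05 and −0.02, and none was tested. There the Pol II subunits fell as well (median −0.32), so the ratio does not show the fall of each class.

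Other genes of the same pathways, from a list of 82 genes chosen by role, were read in the same fit. Of 79 tested, 44 (55.7%) fell and 15 (19%) rose in RPMI (median −0.21), against 39.2% and 40.1% of all genes. In hBMSC-CM 37 (46.8%) fell and 14 (17.7%) rose (median −0.12), against 33.7% and 33.4%. The other Pol I and Pol III subunits all fell in RPMI (5 of 5), led by CD3EAP, now POLR1G, a Pol I subunit, which went from 65.9 to 9.76 CPM (−2.75). Of 5 other Pol I factors tested 3 fell, while TTF1 (−0.13) and TOP1 (−0.07) were not called. The helicase DDX21 went from 763 to 117 CPM (−2.71), NOLC1 from 314 to 64.9 CPM (−2.27) and TCOF1, the treacle protein, named after its values were seen, from 222 to 67.1 CPM (−1.73). In hBMSC-CM these 4 fell by 1.0, 0.62, 0.64 and 0.85. Of 29 Pol II general transcription factors 17 (58.6%) fell and 6 (20.7%) rose, none by 2-fold (TAF8, a TFIID subunit, rose by 0.56). Of 21 Pol II elongation factors 9 (42.9%) fell, near the 39.2% of all genes, and 5 (23.8%) rose. In the latter class HEXIM1, an inhibitor of P-TEFb, rose from 31 to 67.2 CPM (a log2 rise of 1.1), and both subunits of the histone chaperone FACT, SUPT16H (−1.09) and SSRP1 (−1.0), fell. Of 11 assembly and import factors 6 fell and 3 rose, with RUVBL1 at −1.54 and RPAP2, a phosphatase of the Pol II C-terminal domain, at 0.60. SUPT16H, SSRP1, RUVBL1 and TBP were likewise picked afterwards. TBP, which serves all 3 polymerases, fell by 0.60 in RPMI and by 0.33 in hBMSC-CM.

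Most transcripts made by Pol III carry no poly-A tail, and their levels in these poly-A libraries were not read as Pol III output. RN7SL1, the RNA of the signal recognition particle, was at 19464 ± 478.5 CPM (SD, n = 3) in vehicle in RPMI, 20516 ± 2709 with quizartinib in RPMI, 21720 ± 1648 with vehicle in hBMSC-CM and 16203 ± 3011 with quizartinib in hBMSC-CM. It was not called in RPMI (0.08, adjusted p = 0.497) and fell with quizartinib in hBMSC-CM (−0.42, adjusted p = 0.00104). RN7SL2, a near-identical copy whose reads may be shared with it, had group means of 3661 to 4279 CPM and also fell in hBMSC-CM (−0.22, adjusted p = 0.0183). RNY1 had group means of 27.2 to 39.8 CPM and was not called for the drug in either medium. RN7SK, RMRP, RPPH1 and VTRNA1-2 had no count in any library.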

How the data were processed

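The 12 RNA-seq libraries of MOLM-13 cells were placed in their 4 groups of 3 by the sample labels. The authors trimmed reads, dropped short ones, aligned them to hg38 and counted them per gene with STAR (version 2.6.0a in the submitters' processing notes), summed entries with the same gene symbol, and deposited raw counts. The strand setting is not given in the sources used here, so overlapping and antisense genes are uncertain.

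Genes entered the tests where the mean count and the mean CPM were both 1 or more (12998). Counts were scaled by TMM (factors of 0.956 to 1.04) and tested in edgeR 4.0.16 (glmQLFit and glmQLFTest, R 4.3.3) with 4 group means and 5 two-sided contrasts. P-values were adjusted over all tested genes by Benjamini-Hochberg at 0.05, and a second rule asked for 2-fold. Log2 CPM used a prior count of 2. Lengths are those of the Ensembl canonical transcript in GENCODE v44. Counts take in all exons of a gene, so the order of genes per length depends on the transcript taken. Tests were tried on simulated data. Alternatives were DESeq2 1.42.0, limma-voom (limma 3.58.1), other scalings, filters and thresholds, a replicate block, and libraries left out singly or in pairs.

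Values in every library are given for the 2 largest subunits of each polymerase, POLR3G, POLR3GL, RRN3, UBTF, BRF1, BRF2 and MAF1. The extremes of each class have them too, except POLR1D and POLR2D (RPMI only) and TAF1B (vehicle only). Members and lists were chosen with earlier results of these data known.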

Additional observations from a re-analysis of the deposited data

Results flagged for a closer look

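The effect of quizartinib differed between the 2 media for 28 members, by the interaction term in edgeR (quasi-likelihood test, Benjamini-Hochberg adjusted p under 0.05). A positive value means a smaller fall or a larger rise in hBMSC-CM than in RPMI, on the log2 scale. It was positive for 21 members (50%, against 26.1% of all tested genes) and negative for 7 (16.7%, against 19.2%). Among the Pol I subunits and those shared with Pol III, the values were 1.32 for POLR1A, 1.10 for POLR1C, 1.10 for POLR1B and 0.50 for POLR1E. Among the Pol III subunits they were 1.68 for POLR3G, 1.10 for POLR3E, 1.04 for POLR3K, 0.64 for POLR3D, 0.53 for POLR3B and 0.29 for POLR3F, and −0.28 for POLR3GL. For Pol II they were 0.67 for POLR2D, 0.21 for POLR2I and −0.49 for POLR2A, and for the subunits of all 3 polymerases 0.58 for POLR2H, 0.55 for POLR2L and 0.28 for POLR2K. Of the Pol I factors, TAF1D stood at 0.72, RRN3 at 0.53 and UBTF at 0.34. Of the Pol III factors, GTF3A stood at 0.86, GTF3C6 at 0.64 and GTF3C2 at 0.26, while GTF3C1 stood at −0.46, BRF2 at −0.38, BRF1 at −0.37, MAF1 at −0.36 and GTF3C3 at −0.17. POLR2A and MAF1 were called with opposite signs in the 2 media. Single values within a group were not screened for outliers, since groups of 3 are not tested that way.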

How the results depend on the processing

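The 12 changes of a class ratio moved by less than 1 SD under the alternatives run for them. With upper-quartile factors the members higher with quizartinib in hBMSC-CM counted 5 in place of 2, and with library size only 6, and the members lower in hBMSC-CM with vehicle counted 3 in place of 1 under each, and 3 with a mean CPM of at least 10. Without the filter on low counts and at an adjusted p under 0.01, 1 member was higher with quizartinib in hBMSC-CM. At 0.01 the vehicle comparison of the media called 9 members (8 higher) and 2692 of all genes, against 4174. Leaving out 1 library at a time gave 9 to 18 members called in that comparison, 8 to 17 higher and 1 to 2 lower, and 1 to 3 members higher with quizartinib in hBMSC-CM. The lowest counts came without replicate 2 of vehicle in RPMI (9 called, 8 higher), and without replicate 3 of it 10 were higher and 2 lower; without replicate 2 of quizartinib in hBMSC-CM 1 member was higher there. The cause of these shifts was not tested.

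Changes of sign were seen only for values not called in either fit. With upper-quartile factors they were 0.012 for TAF1B in RPMI, 0.0058 and 0.029 for GTF3C1 and GTF3C3 with quizartinib in hBMSC-CM, −0.042 and −0.024 for TAF1A and GTF3C5 between the media with quizartinib, −0.026 and −0.012 for POLR2E and BRF2 between the media with vehicle, and −0.0085 for the interaction of POLR2C. With library size only they were 0.028 and 0.051 for GTF3C1 and GTF3C3 with quizartinib in hBMSC-CM, −0.017 and −0.0018 for POLR2E and BRF2 with vehicle, and 0.010 for the interaction of POLR2E. Without the filter they were −0.0012 for POLR2G with quizartinib in hBMSC-CM, 0.054 for POLR1D, 0.060 for POLR2G, 0.072 for POLR2E and 0.065 for POLR3C between the media with quizartinib, and 0.066 for the interaction of POLR2E. With a mean CPM of at least 10 they were 0.0017 for GTF3C3 with quizartinib in hBMSC-CM, −0.0088 for POLR2E with vehicle and −0.0012 for the interaction of POLR2C. DESeq2's test gave −0.0015 and its size factors −0.0012 for TAF1A between the media with quizartinib.

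With 1 library left out, the ranges of single members that crossed 0 were, between the media with quizartinib, −0.034 to 0.094 for GTF3C5, −0.042 to 0.0091 for POLR1D, −0.047 to 0.021 for POLR2E, −0.060 to 0.030 for POLR2G, −0.034 to 0.0098 for POLR3C and −0.030 to 0.043 for TAF1A. With vehicle they were −0.021 to 0.078 for BRF2, −0.040 to 0.0033 for GTF3C3, −0.015 to 0.038 for POLR2E, −0.067 to 0.0040 for POLR2J, −0.079 to 0.017 for POLR2L, −0.015 to 0.108 for POLR3B and −0.027 to 0.021 for TAF1D. For the interaction they were −0.038 to 0.041 for POLR2C, −0.053 to 0.021 for POLR2E and −0.023 to 0.133 for POLR3A. The change of the Pol III to Pol II ratio in hBMSC-CM ran from −0.047 to 0.0058.

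Both alternatives that leave out 2 libraries were chosen after seeing the data. Without replicate 1 of quizartinib and replicate 3 of vehicle in hBMSC-CM, 32 members were lower and 7 higher with quizartinib in RPMI, 35 and 2 in hBMSC-CM, and 9 lower and 26 higher between the media with quizartinib, and the sign turned for POLR1D (0.0091) and GTF3C5 (−0.033) between the media with quizartinib, for TAF1D with vehicle (0.0091) and for the interaction of POLR2C (−0.0049). The alternative without both libraries numbered 1 in hBMSC-CM called 32 members lower and 7 higher with quizartinib in RPMI, 33 and 3 in hBMSC-CM, and 9 lower and 26 higher between the media with quizartinib. It turned the sign of POLR2G with quizartinib in hBMSC-CM (−0.0089), of POLR1D (0.0091) and GTF3C5 (−0.034) between the media with quizartinib, of POLR2E (−0.014) and POLR3B (−0.0054) with vehicle, and of the interactions of POLR2C (−0.029), POLR2E (0.0035) and GTF3C5 (−0.014). Replicate numbers did not pair the libraries: the 18 correlations of same-numbered libraries ran from −0.227 to 0.0979. With the replicate block, 31 members fell and 7 rose in RPMI, 34 and 2 in hBMSC-CM, and the interaction called 6 negative and 20 positive, with 10224, 8611 and 5679 of all genes called. A model holding only the compared groups could not be made for the interaction. The calls lost most often were those of POLR1E (17 of 23 alternatives) and POLR3A (14 of 23) between the media with vehicle and the interaction of POLR2I (13 of 22).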
